A study of Mus musculus with 24 samples.

Results

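A set of 17 genes is described, of 18194 with a probe set of their own on an Affymetrix mouse array. On PCR-amplified arrays, their mean log2 signal was highest in primordial germ cells (PGCs) taken from mouse embryos at embryonic day 9.5 (E9.5). The set was chosen on measured values. Both PGC arrays had to lie at least 1.5 on the log2 scale, a fold of 2.83, above the mean of each of 5 other cell types measured on arrays of the same kind, and the PGC mean had to reach 6, an intensity of 64. In all, 23 genes met these limits, and 6 of them were left out by name: the embryonic globin genes Hba-x and Hbb-bh1, the homeobox genes Hoxb1 and Hoxb9, the Hoxb5 opposite-strand transcript Hoxb5os, and the mesoderm gene Meox1. The differences between PGCs and the other 5 cell types therefore describe how the members were chosen, and no test is given for them. The members were 0.0934% of the genes.

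PGCs are the founders of eggs and sperm. In the mouse they arise from the epiblast, which is the tissue that forms the whole embryo proper, and they then migrate through the hindgut towards the developing gonads while they erase epigenetic marks. PGC-like cells (PGCLCs) are induced in culture to mirror this route.

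The series holds 24 arrays of C57BL/6 cells in 12 groups of 2 arrays. Of these, 12 arrays were hybridised after a 22-cycle PCR from 5 ng of total RNA, which the labels equate with 500 cells (amplified arrays): embryonic stem cells (ESCs), day 2 epiblast-like cells (EpiLCs), epiblast stem cells (EpiSCs), the epiblast of embryos at embryonic day 5.5 to 6, PGCLCs and E9.5 PGCs. The other 12 came from the standard protocol without PCR (unamplified arrays) and cover ESCs, EpiLCs at days 1, 2 and 3, EpiSCs and PGCLCs, but no cells taken straight from embryos. ESCs were grown feeder-free in 2i+LIF, which combines kinase inhibitors with leukaemia inhibitory factor. EpiLCs were induced from these ESCs, PGCLCs from day 2 EpiLCs, and the EpiSC line came from epiblast of embryonic day 5.75. The labels call the 2 arrays of each group biological replicates. They name no transgene and do not say how PGCs or PGCLCs were isolated, how many embryos were pooled, or whether replicates were separate cultures or litters. A p-value therefore measures only the spread between these samples.

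Germ cell transcripts were checked first. Of 23 measured genes of an early germ cell list, 22 exceeded an intensity of 24, the 40th percentile of the amplified arrays, on both PGC arrays, against 22 in PGCLCs, 21 in ESCs, 19 in day 2 EpiLCs, 18 in the epiblast and 17 in EpiSCs. The summed list separated the groups more, with 60660 and 70380 in PGCs, 68530 and 74690 in PGCLCs and at most 32540 on the other amplified arrays. Dppa3, a maternal and germ cell factor, had intensities of 7191 and 9022, and Prdm1, the repressor that starts the germ cell programme, 884 and 1191. The early gene that did not pass 24 was Cxcr4, at 15.2 and 4.2 in PGCs. The later germ cell list did not set PGCs apart. It summed to 3194 and 3170 in PGCs, 4765 and 5544 in PGCLCs, 3384 and 3811 in day 2 EpiLCs, and 784.7 to 3047 in the other groups. Of its genes 21 passed 24 on both PGC arrays, against 22 in PGCLCs and 24 in day 2 EpiLCs. None of the 23 early germ cell genes and none of 31 later germ cell genes was a member. Markers of other embryonic cells were mixed. Hba-x had 8258 in PGC replicate 1 and 3346 in replicate 2, against at most 208 on the other 10 amplified arrays. Hbb-bh1 had 2683 and 582.5 in PGCs, against at most 105.4 on those 10 arrays. Another embryonic globin gene, Hbb-y, was at the floor of 4.2 on both PGC arrays and at 32.8 to 86.2 elsewhere. The summed erythroid list of 16 measured genes, without globins, was lower in PGCs, at 4435 and 4731, than on every other amplified array, at 5251 to 7344. Tfrc made up most of the PGC sum, at 2942 and 3608, against 4349 and 4835 in PGCLCs. Single genes of the list went both ways between PGCs and PGCLCs. Hemgn had 80.7 and 29.85 in PGCs against 4.2 and 4.75 in PGCLCs, and Klf1 76.6 and 32.1 against 24.8 and 20.9. Fech had 224.6 and 216 against 498.7 and 506.4, and Blvrb 91.6 and 51.7 against 134.4 and 104.2. In bulk samples, fewer cells of a type and less RNA per cell cannot be told apart. The ratio of 5' to 3' control probe sets of Gapdh was 0.239 in PGC replicate 1 and 0.83 in replicate 2.

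Gaps are given as the log2 difference between the lower PGC array and the highest mean among the other 5 amplified groups. That next-highest group was PGCLCs for 10 members, EpiSCs for 5 and the epiblast for 2, and neither ESCs nor day 2 EpiLCs for any. Over all 10345 genes with a PGC mean of at least 6 that were not left out by name, PGCLCs were next in 21.8%, EpiSCs in 29%, the epiblast in 14.3%, ESCs in 17.5% and day 2 EpiLCs in 17.4%. By function, 6 members encode transcription factors, 4 encode secreted or matrix proteins, 5 encode channels, receptors or enzymes, and the others are Dapl1 and a long noncoding RNA.

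**Figure D1:**
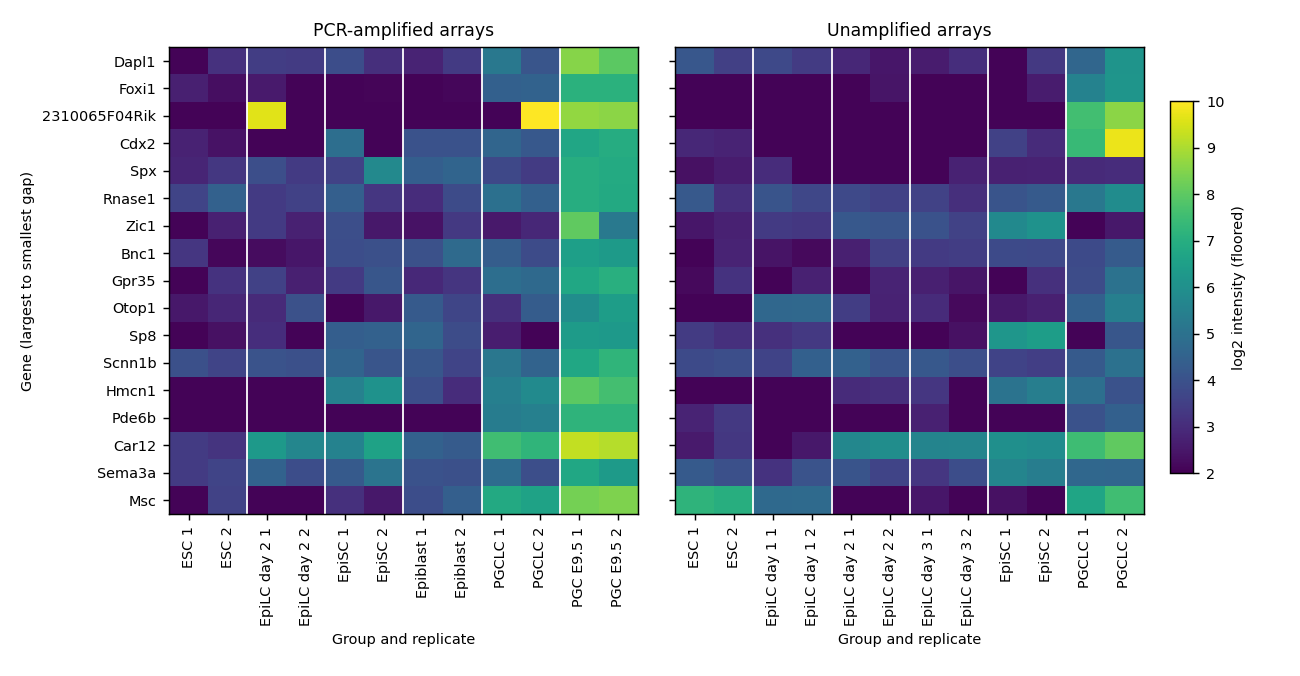
Log2 intensity, with low values raised to a floor of 4.2 in intensity, of the 17 members (rows, from the largest to the smallest gap) on the 12 amplified arrays (left) and the 12 unamplified arrays (right), 1 column per array. PGCs, at the right end of the left panel, are high in every row. On the unamplified arrays most of the signal lies in PGCLCs (Cdx2, 2310065F04Rik, Car12, Msc, Foxi1, Rnase1) and EpiSCs (Sp8, Zic1, Sema3a, Hmcn1, Car12). Car12 has a similar signal in EpiLCs at days 2 and 3 as in EpiSCs, and Msc is also high in ESCs.

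Dapl1, a relative of the death-associated protein gene Dap, had the largest gap, 3.33. Its intensities were 376 and 254 in PGCs and 36.9 and 17.3 in amplified PGCLCs, and between 1.81 and 14.9 on the other 8 amplified arrays. The ranges do not overlap, and PGCLCs were the only other group with an array above 24. The 250 bases before its start in RefSeq (GRCm38.p6, chr2:59484403-59484652, plus strand) are shown because it leads the set, beside those of Cdx2 (chr5:147307250-147307499, minus strand), which had the largest difference among members between PGCLCs and day 2 EpiLCs on unamplified arrays. Each is written from 5′ to 3′ along its gene, and capitals mark every match among 6 short motifs searched on both strands.
Dapl1: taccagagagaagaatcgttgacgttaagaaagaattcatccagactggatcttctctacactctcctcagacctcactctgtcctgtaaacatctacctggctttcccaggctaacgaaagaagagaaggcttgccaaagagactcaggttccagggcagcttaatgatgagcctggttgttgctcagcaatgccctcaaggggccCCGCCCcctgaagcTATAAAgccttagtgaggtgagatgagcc
Cdx2: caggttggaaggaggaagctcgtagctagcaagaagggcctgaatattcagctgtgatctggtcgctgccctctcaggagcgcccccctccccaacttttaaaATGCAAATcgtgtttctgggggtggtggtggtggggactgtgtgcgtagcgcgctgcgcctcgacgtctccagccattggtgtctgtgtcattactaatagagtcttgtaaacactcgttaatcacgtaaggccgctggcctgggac

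In the Dapl1 stretch, CCGCCC is the GC box GGGCGG read on the other strand, and TATAAA, the TATA box, begins 29 bases before the start. In the Cdx2 stretch, ATGCAAAT, the octamer that POU factors can bind, begins 147 bases before the start. The other motifs searched were CACGTG, an E box, TCCCGC, an E2F motif, and CCGGAAG, an ETS motif. None overlaps another in these stretches. RefSeq promoters of 300 bases were found for 16 of the 17 members, 20 in all. GGGCGG was in 10 of the 20 (50%), against 35.7% of 32851 promoters in the table. TATAAA was in 3 (15%, against 13.6%) and the E2F motif in 3 (15%, against 20%). The E box, the octamer and the ETS motif were in 1 each (5%, against 7.15%, 1.74% and 8.86%). Only 5 of the 20 (25%) had a GC content of at least 50% together with an observed over expected CpG ratio of at least 0.6, against 33.5% of all. These are matches of letters and carry no test.

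Foxi1 led the transcription factors with a gap of 2.62. It encodes a forkhead factor known from the inner ear and from acid-base handling cells of the kidney. Its intensities were 139 and 138 in PGCs and 21.8 and 23.1 in amplified PGCLCs, and at most 6.45 on the other 8 amplified arrays. Cdx2, a caudal homeobox gene of the trophoblast, the hindgut and the posterior body, had 106.5 and 123 in PGCs, 24.5 and 18.2 in PGCLCs, and 29.7 and 1.69 in the pair of EpiSC arrays. Foxi1 was above the background of the array set in no other amplified group, whereas Cdx2 passed 24 on a single PGCLC and a single EpiSC array.

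Beside Cdx2, the hindgut and endoderm list, with 23 measured genes, had summed intensities of 4540 and 4344 in PGCs, 4797 and 5505 in PGCLCs and 20460 to 25550 in EpiSCs. In PGCs 17 of its genes exceeded 24 on both arrays, and in PGCLCs 16. Most of the PGC sum came from the adhesion gene Epcam, at 1383 and 1580, and the tight junction gene Cldn7, at 1191 and 1299. Between PGCs and PGCLCs, single genes of this list went both ways. The endoderm factor Foxa1 was at 20.2 and 29.4 in PGCs and at the floor of 4.2 on both PGCLC arrays. Foxa2 was at 34.7 and 20.5 in PGCs against 14.48 and 14.36 in PGCLCs. Ttr had 98.77 and 76.62 against 28.61 and 26.03, and Apoa1 32.84 and 29.49 against 5.533 and 4.196. Lower in PGCs were Trap1a, at 163.9 and 80.28 against 708.7 and 729.5, and Cldn4, at 63.81 and 30.3 against 264.5 and 190.4. The part of these transcripts in the Cdx2 value was not tested.

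Msc, which encodes the helix-loop-helix repressor musculin, had the smallest gap of the set, 1.57. It stood at 318.5 and 351 in PGCs, at 116 and 98.4 in amplified PGCLCs, and at most at 21.2 elsewhere on amplified arrays. Bnc1, the gene of the zinc finger protein basonuclin 1 of germ cells and keratinocytes, had 90.8 and 82.2 in PGCs, next to 15.7 and 27.2 in the epiblast and 20.5 and 14.2 in PGCLCs. Sp8, a zinc finger gene of limb and brain development, had 83.8 and 80.2 in PGCs, 20.8 and 22.4 in EpiSCs, 24.3 and 14.4 in the epiblast, and only 6.19 and 3.31 in PGCLCs. All 3 genes had both PGC arrays above the other 10 amplified arrays.

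Zic1, a zinc finger gene of early neural development, differed most between the PGC arrays. It had 263 in PGC replicate 1 and 37.4 in replicate 2, a log2 difference of 2.81, and between 2.12 and 15.1 on the other 10 amplified arrays. For the other 16 members the PGC arrays differed by at most 0.566. The rule is set on the lower PGC array and so favours arrays that agree, and nothing is read from this. Among the 10345 genes with a PGC mean of at least 6, Zic1 was among the 4 with a difference at least as large as its own.

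Many neural genes, and some genes of several other lists, were higher in the same PGC array. Of 22 measured neural genes, 13 were higher by more than 1 in replicate 1 and 1 in replicate 2, or 12 of 21 without Zic1. Over all 10345 genes, 126 were higher by more than 1 in replicate 2, and 5.97% in replicate 1. Also higher by more than 1 in replicate 1 were 8 of 16 heart and muscle genes, 8 of 14 Notch genes, 9 of 23 mesenchyme genes, 10 of 31 trunk mesoderm genes and 9 of 30 extracellular matrix genes, with 0, 0, 1, 3 and 0 higher in replicate 2. The summed extracellular matrix list was nevertheless lower in replicate 1, at 11330, than in replicate 2, at 12960. These list counts take every measured gene, while the 10345 genes all have a PGC mean of at least 6. The list counts and the share of 5.97% are therefore not over like sets. The summed neural list was 4008 in PGC replicate 1 and 1584 in replicate 2, within the range of 1185 to 8946 of the other amplified arrays. The neuronal tubulin gene Tubb3 had 326 and 45.4, the motor neuron factor gene Olig2 122 and 18.1, and Fabp7 295 and 48. The part of these transcripts in the Zic1 value was not tested, and Zic1 was lost from the set when only PGC replicate 2 was used.

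**Figure D2:**
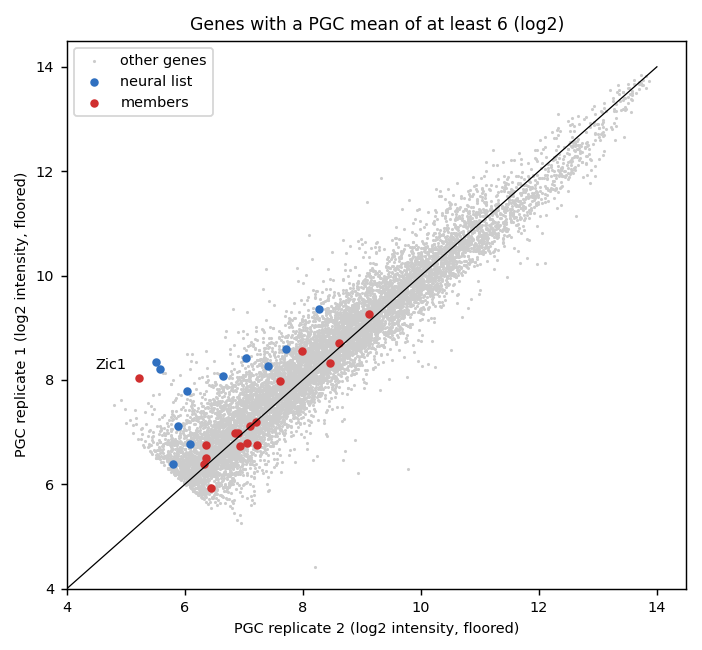
Log2 intensity in PGC replicate 1 (vertical) against PGC replicate 2 (horizontal) for the 10345 genes with a PGC mean of at least 6; red points are the 17 members, blue points the genes of the neural list and grey points all others, and the line marks equal values. Zic1 lies 2.81 above the line among the neural genes, while the other 16 members lie within 0.566 of it.

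Among the secreted products, Spx, which encodes the peptide hormone spexin, had a gap of 2.22, with 126.5 and 119 in PGCs. The EpiSC arrays were next and were unequal, at 12 and 54.8, and PGCLCs had 13.2 and 10.5. Rnase1, the gene of the secreted pancreatic-type ribonuclease, had 126 and 115 in PGCs, 30.6 and 21.8 in PGCLCs, and at most 22.3 on the other amplified arrays. Hmcn1, which encodes the matrix protein hemicentin 1, had 253 and 195 in PGCs, 43.7 and 57.5 in PGCLCs, and 45.2 and 67 in EpiSCs, and at most 3.66 in ESCs and day 2 EpiLCs. Sema3a, a secreted axon guidance gene, had 108 and 82.4 in PGCs, 19.05 and 33.6 in EpiSCs and 28.6 and 15.1 in PGCLCs. Hmcn1 was thus above 24 on both arrays of 2 other groups, whereas Spx, Rnase1 and Sema3a passed 24 on single arrays elsewhere.

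The channel, receptor and enzyme genes had PGCLCs as the next group in 4 of 5 cases. Car12, the gene of a membrane-bound carbonic anhydrase, had 612 and 554 in PGCs. It was above 24 on both arrays of 3 other amplified groups, with 187 and 149 in PGCLCs, 78.1 and 50.9 in day 2 EpiLCs, 46.8 and 98.5 in EpiSCs, 22.1 and 19.5 in the epiblast and 10.4 and 9.26 in ESCs. Pde6b, which encodes a subunit of the rod photoreceptor phosphodiesterase, had 147 on both PGC arrays, 41.4 and 45 in PGCLCs, and at most 2.9 on the other 8 amplified arrays. For Pde6b those 8 arrays were all at the floor of 4.2, so PGCs and PGCLCs were the only groups with signal.

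Scnn1b, the beta subunit gene of the epithelial sodium channel, had 107 and 149 in PGCs, 35.8 and 23.4 in PGCLCs, and 12.4 to 23.8 elsewhere on amplified arrays. Gpr35, a G protein-coupled receptor gene, had 110 and 133 in PGCs, 29.7 and 26.4 in PGCLCs and at most 17.7 elsewhere. Otop1, which encodes a proton channel needed for the gravity-sensing crystals of the inner ear, had 61 and 87.1 in PGCs, 19.4 and 12.8 in the epiblast and 8.53 and 19.9 in PGCLCs. For each of these 3 genes the PGC arrays lay above all 10 other amplified arrays.

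The last member carries the provisional name 2310065F04Rik and is listed by RefSeq as a long noncoding RNA, with the synonym linc-Myh. It had 418 and 390.5 in PGCs but 1105 in a single PGCLC array and 797 in a single day 2 EpiLC array, and exactly 1, the lowest value of the table, on the other 8 amplified arrays. Since the rule compares means of log2 values, this gene was kept although 2 other arrays exceeded both PGC arrays. The other 16 members were above every other amplified array in both PGC arrays, by 1.12 to 2.78. With the highest single array in place of each group mean, a setting chosen after seeing the data, 12 genes met the rule, all of them members, and 2310065F04Rik, Spx, Zic1, Sema3a and Msc did not.

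**Figure D3:**
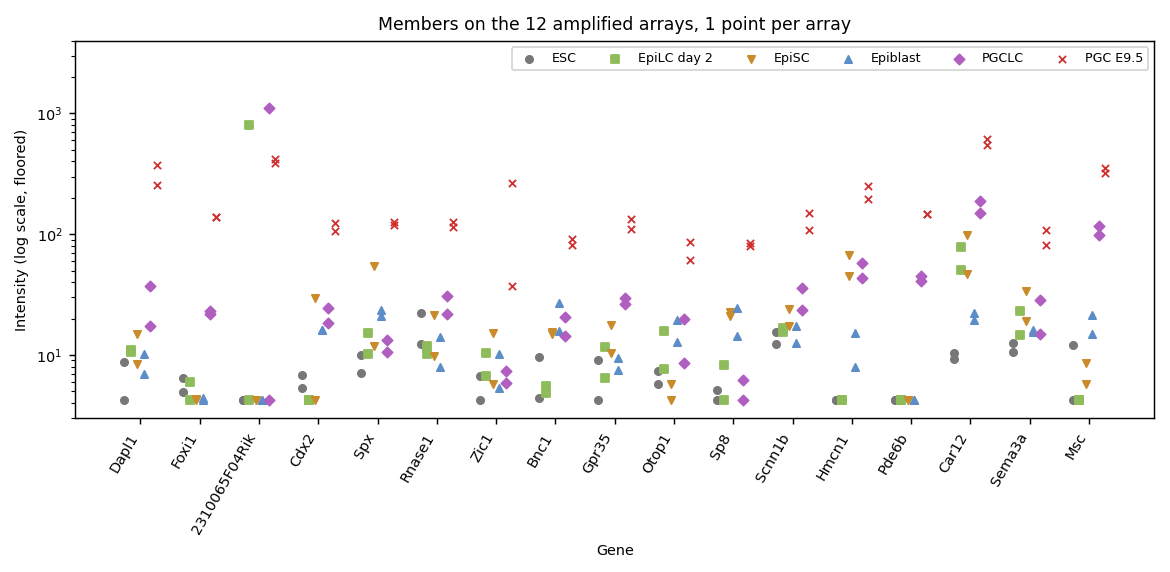
Intensity (log scale, low values raised to 4.2) of each member on each of the 12 amplified arrays, 1 point per array, with symbols for the 6 groups. PGC points (crosses) lie above all others for 16 members, and for 2310065F04Rik 1 PGCLC and 1 day 2 EpiLC array lie above them.

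The limit fell in a continuous run of gaps. Just inside it were Msc at 1.57, Sema3a at 1.70, Car12 at 1.73, Pde6b at 1.77 and Hmcn1 at 1.82. Just outside were Thsd4 at 1.49, Coro2b at 1.43, Plppr1 at 1.37, Nr2f1 at 1.36 and Pygl at 1.36. The set also depended on which PGC array was used: 29 genes met the rule without PGC replicate 1 and 53 without PGC replicate 2, and 16 of the members were in each of these sets.

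Other probe sets of the same genes gave a further reading of the same arrays. Of 17 members 4 had more than 1 probe set, with 6 others in all, and 3 of the 6 had a gap of at least 1.5. Those 3 were a Zic1 probe set at 1.80, a Car12 probe set at 1.66 and a Sema3a probe set at 1.68. The second Cdx2 probe set read 13.2 and 30.3 in PGCs with a gap of 1.20, another Sema3a probe set read 11 and 13.1 with a gap of 0.39, and another Car12 probe set was lower in PGCs than in ESCs, with a gap of -0.72.

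Unamplified arrays were not used by the rule except in choosing the probe set of a gene, and there the groups were tested. They ask which members had begun to appear in PGCLCs without reference to the PGC arrays. Differences were fitted with limma over all 14935 genes for which at least 2 of the 12 arrays exceeded 28.1, the 40th percentile of these arrays. A gene was called at a Benjamini-Hochberg adjusted p under 0.05 and a log2 difference of at least 1. Of the 17 members 10 were tested, and 7 lay too low: Dapl1, Spx, Bnc1, Gpr35, Otop1, Scnn1b and Pde6b.

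In PGCLCs minus day 2 EpiLCs, 7 of 17 members were called higher and 1 lower, while 8.77% of all tested genes were called higher and 11.9% lower. Foxi1, Cdx2, Rnase1 and 2310065F04Rik entered the test through their PGCLC arrays alone and so had to differ, and the count is therefore no evidence about the set. The median difference over all 17 members, tested or not, was 1.89, and that over all tested genes was -0.089. Only the second median is limited to genes that passed the filter, so the pair is not over like sets and nothing is read from it.

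Cdx2 had 168 and 873 in PGCLCs and at most 1.45 in day 2 EpiLCs. This is a log2 difference of 6.51 ± 0.60 (standard error, n = 2 arrays per group) with a limma adjusted p of 4.7e-06. Standard errors rest on 1 estimate of the spread per gene, shared by all 6 unamplified groups. Groups at the floor show no spread and narrow that estimate. For Cdx2 the standard deviation was 0.00 at each EpiLC day and 1.68 in PGCLCs, so its standard error and p-value understate the spread between PGCLC arrays. Counted against the level of 28.1 in place of the EpiLC value, PGCLCs were at least 13.6-fold higher. The PGCLC arrays were unequal, and the lower of them still exceeded every array of the other 5 unamplified groups, which reached at most 11.8. Foxi1 had 46.6 and 71.5 in PGCLCs and at most 5.42 in day 2 EpiLCs, a log2 difference of 3.60 ± 0.39 (adjusted p = 1.62e-05) and at least 2.05-fold.

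Msc had 103.5 and 189 in PGCLCs and at most 4.18 in day 2 EpiLCs, a difference of 5.06 ± 0.32 (adjusted p = 2.78e-07) and at least 4.97-fold. Car12 had 182 and 264 in PGCLCs and 51.5 and 60.2 in day 2 EpiLCs, a difference of 1.98 ± 0.295 (adjusted p = 0.00018), and it was the called member with both groups above 28.1. 2310065F04Rik had 190 and 390.5 in PGCLCs and exactly 1 on the other 10 unamplified arrays, at least 9.7-fold (adjusted p = 2.99e-07). Those 10 arrays at the floor also narrow the spread behind the p-value of 2310065F04Rik. Its values of exactly 1 stand beside 797 and 1105 within replicate pairs on amplified arrays, so a reading of 1 may not mark a low level.

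The remaining calls were of dim genes. Rnase1 had 36.6 and 59.4 in PGCLCs and 13.6 and 11.6 in day 2 EpiLCs, a difference of 1.89 ± 0.41 (adjusted p = 0.00254). Hmcn1 had 30.6 and 16 against 7.85 and 8.52, a difference of 1.44 ± 0.45 (adjusted p = 0.0195). That call was lost without either day 2 EpiLC array (adjusted p = 0.084 and 0.0629) and without PGCLC replicate 1 (adjusted p = 0.125). Zic1 was called lower, with 2.83 and 5.64 in PGCLCs against 18.5 and 17.3 in day 2 EpiLCs, by -1.88 ± 0.31 (adjusted p = 0.000405), all of them under 28.1. Sp8 (1.03 ± 0.55, adjusted p = 0.136) and Sema3a (0.80 ± 0.36, adjusted p = 0.0795) were not called. The calls of Rnase1, Hmcn1 and Zic1 were lost when the floor was raised to the 40th percentile of all 24 arrays (differences of 0.84, 0.12 and 0.00).

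The names of the unamplified arrays carry codes whose meaning is not stated. Replicate 2 arrays all share a code, while the replicate 1 arrays of PGCLCs and EpiSCs have another than those of ESCs and EpiLCs. Within replicate 2 the 7 higher calls had differences of 0.91 (Hmcn1) to 7.70 (Cdx2), and Zic1 had -1.62.

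The 7 members that were not tested can be given as values. Dapl1 had 24.9 and 70.7 in PGCLCs and at most 18 on the other 10 unamplified arrays. Otop1 had 21.7 and 43.6 in PGCLCs, 25.3 and 26 at EpiLC day 1, and at most 11 in the other groups. In PGCLCs Gpr35 had 14.7 and 32.6, Pde6b 16.3 and 21.8, Bnc1 14.1 and 19.9 and Spx 7.72 and 8, and Scnn1b reached at most 31.5. Dapl1, Gpr35, Pde6b and Bnc1 were higher in both PGCLC arrays than on any other unamplified array. For Bnc1 the margin was slight, at 14.1 beside 13.9 in EpiSC replicate 1. How many of all genes separate in this way was not counted, so nothing is read from it.

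**Figure D4:**
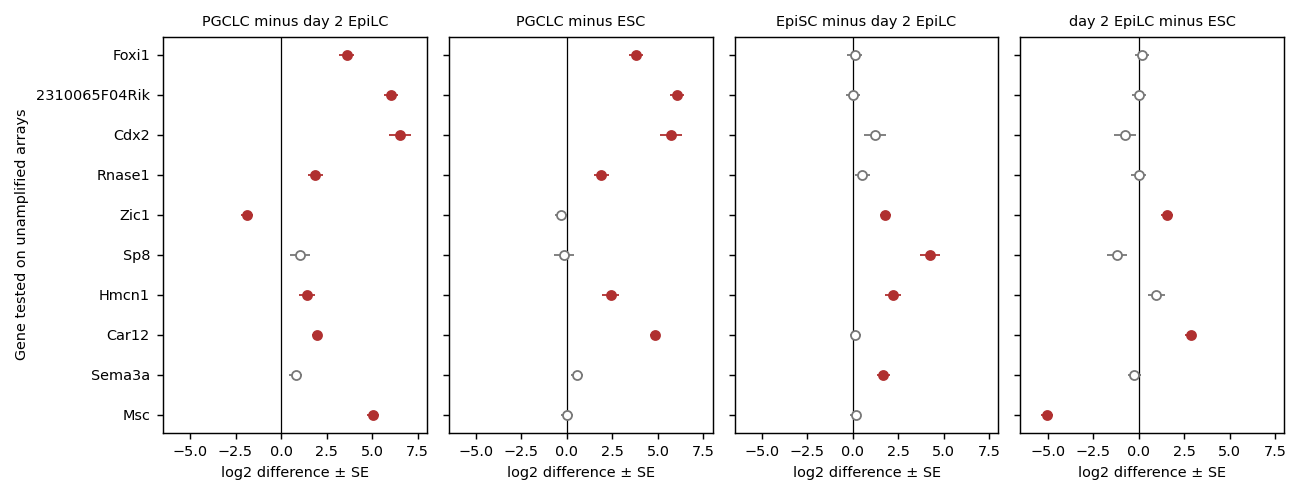
Log2 difference ± standard error (2 arrays per group, spread shared by all 6 groups) on unamplified arrays for the 10 members that were tested, in 4 comparisons. Filled red points were called (limma adjusted p under 0.05 and a difference of at least 1), and open points were not. In PGCLCs minus day 2 EpiLCs 7 points are called above 0 and Zic1 below, and Msc is called below 0 in day 2 EpiLCs minus ESCs.

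Against ESCs, which share the PGCLC arrays with the comparison above, 6 members were called higher in PGCLCs, with 9.4% of all tested genes called higher, and 0 lower, with 11.2% called lower. In the same limma fit 0 members were lower at an unadjusted p under 0.05. As above, Foxi1, Cdx2, Rnase1 and 2310065F04Rik passed the filter through PGCLC arrays alone, so the count is no evidence about the set. The 6 were Cdx2 (5.73 ± 0.60), 2310065F04Rik (6.02 ± 0.39), Car12 (4.84 ± 0.295), Foxi1 (3.78 ± 0.39), Hmcn1 (2.40 ± 0.45) and Rnase1 (1.88 ± 0.41). The calls of Hmcn1 and Rnase1 were lost with the same raised floor (0.12 and 0.84). Msc was not among them: ESCs had 146 and 131 and PGCLCs 103.5 and 189, a difference of 0.01 ± 0.32 (adjusted p = 0.978). Without PGCLC replicate 2, Sp8 was called lower, by -1.18 (adjusted p = 0.0188).

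Between ESCs and day 2 EpiLCs 2 members were called higher, Car12 (2.86 ± 0.295, adjusted p = 1.36e-05) and Zic1 (1.55 ± 0.31, adjusted p = 0.00183), and 1 lower, Msc. The background was 8.96% called higher and 7.5% lower. Both Zic1 groups lay under 28.1, at means of 17.9 and 6.09, and its call was lost with the same raised floor (0.00) and when its probe sets were averaged (0.79). Msc fell by 5.04 ± 0.32 (adjusted p = 3.44e-07), at least 4.93-fold. Along the induction its intensities were 146 and 131 in ESCs, 26.5 and 27.2 at day 1, 4.18 and 1 at day 2, and 5.55 and 1 at day 3. Car12 went the other way in time, from 5.96 and 9.87 in ESCs and 2.32 and 5.75 at day 1 to 51.5 and 60.2 at day 2 and 49.2 and 49.9 at day 3.

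EpiSCs were set against the same day 2 EpiLC arrays. In EpiSCs minus day 2 EpiLCs 4 members were called higher and 0 lower, with 12.4% of all genes called higher and 6.45% lower. In the limma fit 0 members were lower at an unadjusted p under 0.05. Sp8 had 73.6 and 86.9 in EpiSCs and at most 3.54 in day 2 EpiLCs, a difference of 4.25 ± 0.55 (adjusted p = 6.35e-05) and at least 2.85-fold. Zic1 had 55.9 and 68.3 in EpiSCs, a difference of 1.79 ± 0.31 (adjusted p = 0.000613). Hmcn1 had 33.2 and 42.6 (2.20 ± 0.45, adjusted p = 0.00179) and Sema3a 50.4 and 42.4 (1.67 ± 0.36, adjusted p = 0.00231). Sp8, Zic1 and Sema3a entered the test through EpiSC arrays alone, so this count too is no evidence about the set. The calls of Hmcn1 and Sema3a were lost with the same raised floor (0.53 and 0.69).

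PGCLCs were measured on both kinds of array, and for 11 of 17 members the readings differed by between -0.58 and 0.85. Over all genes above background in either kind, the median of unamplified minus amplified PGCLC signal was -0.01. Cdx2 was far from it: 168 and 873 without PCR and 24.5 and 18.2 with PCR, a log2 difference of 4.18 that exceeded those of 99.5% of genes. The second Cdx2 probe set had the same order, with group means of 156 without and 5.76 with PCR. 2310065F04Rik differed by 2.00, Foxi1 by 1.36 and Otop1 by 1.24 in the same direction, and Hmcn1 by -1.18 and Pde6b by -1.19 in the other.

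For Msc the difference lay in ESCs. These had 146 and 131 on unamplified and 1 and 12 on amplified arrays, a difference of 4.28 that exceeded those of 99.5% of genes. Sp8 and Zic1 had 73.6 and 86.9, and 55.9 and 68.3, in unamplified EpiSCs, against 20.8 and 22.4, and 15.1 and 5.79, in amplified EpiSCs. For Cdx2, Msc, Sp8 and Zic1 the rule thus used amplified groups that read lower than their unamplified counterparts. The ratio of 5' to 3' control probe sets of Actb also differed between the kinds of array. It was 0.834 and 0.792 in unamplified PGCLCs against 0.0591 and 0.0633 in amplified PGCLCs. In ESCs it was 0.812 and 0.808 against 0.0593 and 0.0503. The part of this in the differences above was not tested. Whether the cultures were the same is not stated, and levels set across both kinds of array carry no test.

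**Figure D5:**
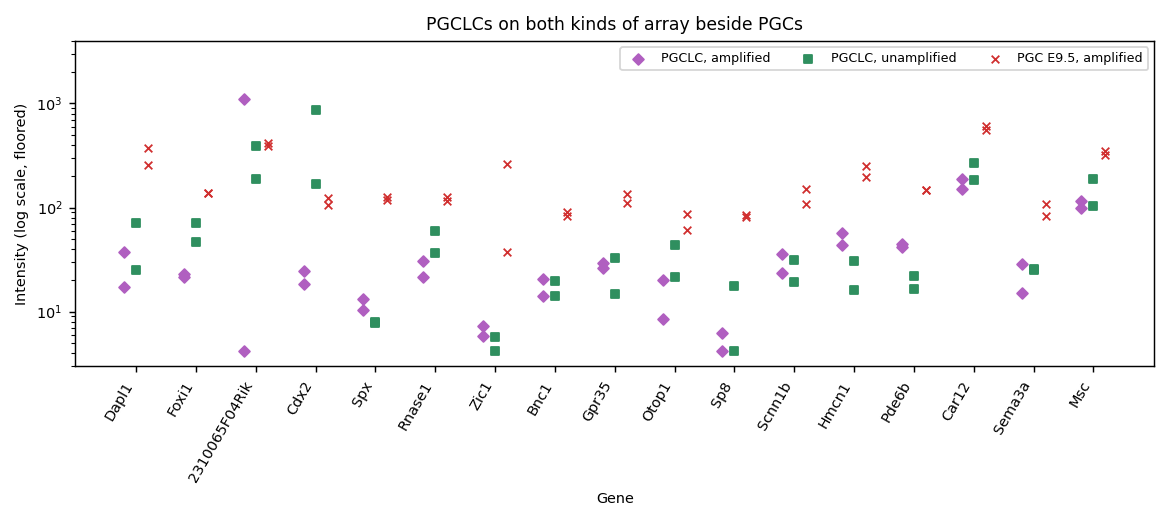
Intensity (log scale, low values raised to 4.2) of the 17 members in PGCLCs on amplified arrays (diamonds), PGCLCs on unamplified arrays (squares) and PGCs on amplified arrays (crosses), 1 point per array. The unamplified PGCLC points of Cdx2, 168 and 873, lie above its PGC points, 106.5 and 123. For the other members, except 2310065F04Rik, the PGCLC points of both kinds lie below the PGC points.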

How the data were processed

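The deposited table holds 1 intensity per probe set and array for 45101 probe sets and 24 arrays; the steps by which the authors made each intensity value (software, normalization) were not given in the sources used here. Array medians lay between 41.1 and 49.2 on unamplified and between 36.2 and 40 on amplified arrays, so no further scaling was applied. Gene names came from the platform annotation: 34958 probe sets carried a single symbol and 932 several, which were left out. For each of 18194 genes the single probe set of highest mean was kept (log2 intensity over all arrays), after values under the 10th percentile, 4.2, were raised to it. The number of arrays, 2 per group, limits the precision. The test on unamplified arrays used limma (version 3.58.1, R 4.3.3) with a mean for each of the groups, 12 arrays and an intensity trend; the fit was tested on simulated data. The members and lists were chosen with earlier results of these data known. All 17 members are named, with called genes, list members and neighbours of the limit; provisional names were otherwise passed over. Same-numbered unamplified arrays had residuals correlated above 0.1 in 3 of 15 pairs of groups, so numbers were not taken as pairs. Alternatives covered scaling, floor, filter, probe sets, variance model, samples and the rule's limit.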

Additional observations from a re-analysis of the deposited data

Results flagged for a closer look

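For 3 members a contrast ran in opposite directions on the 2 kinds of array, in every array of both groups, and these differences were not tested. Dapl1 in day 2 EpiLCs minus ESCs was -1.16 (log2) on unamplified and 0.83 on amplified arrays. Spx in the same contrast was -0.42 and 0.58. Scnn1b in EpiSCs minus day 2 EpiLCs was -0.73 and 0.34. All group means involved lie under the 40th percentile of their arrays.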

How the results depend on the processing

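Of 21 differences of members called on unamplified arrays, 13 kept their direction and call under every setting run, and 0 reversed. The number of genes that met the rule was 42 with a limit of 1 and 6 with a limit of 2, and leaving out a PGC array gave 29 to 53. With the mean of probe sets 14 genes met it, and Car12, Cdx2, Sema3a and Zic1 were lost. With the floor at the 40th percentile 15 met it, and 2310065F04Rik, Otop1 and Zic1 were lost. Quantile normalization gave 17, with Msc lost and Spo11 gained. Without a filter on low values, 11 members were called higher in PGCLCs minus day 2 EpiLCs, 10 in PGCLCs minus ESCs, and 2 lower in day 2 EpiLCs minus ESCs. With the floor at the 40th percentile, 5 members were higher and 0 lower in PGCLCs minus day 2 EpiLCs, 4 higher in PGCLCs minus ESCs, 2 higher in EpiSCs minus day 2 EpiLCs and 1 higher in day 2 EpiLCs minus ESCs. With the mean of probe sets, 0 members were lower in PGCLCs minus day 2 EpiLCs and 1 higher in day 2 EpiLCs minus ESCs. In a fit of the 2 groups compared, 2 were lower in day 2 EpiLCs minus ESCs. Leaving out an array gave 0 to 1 members lower in PGCLCs minus ESCs and 6 to 7 higher in PGCLCs minus day 2 EpiLCs. With the replicate number as a block (replicate block), 7 members were higher and 1 lower in PGCLCs minus day 2 EpiLCs, and no count changed in the other 3 comparisons. Signals near background limit these arrays: 7 of 17 members did not pass the filter on low values.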

Other observations

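Genes related to the members were read on the same amplified arrays; these relatives were chosen after the members' values were seen. Of 39 listed relatives, 33 were measured, 2 had both PGC arrays above every other group mean and 0 met the limit of 1.5. Members were only 0.0934% of all genes, so 0 of 33 is no result about these families. The share of all genes with both PGC arrays above every other group mean was not counted. Scnn1g, the gamma subunit gene of the same sodium channel as Scnn1b, had 48.1 and 108.5 in PGCs and a gap of 1.27, with PGCLCs next at a mean of 19.9, while the alpha subunit gene Scnn1a had 40 and 41.7 in PGCs and 59.8 in PGCLCs. Cdx4, a caudal relative of Cdx2, was at 6.37 and 8.73 in PGCs, close to the floor of 4.2, with a gap of 0.10.

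Several relatives had lower PGC signals than their highest other group. The carbonic anhydrase gene Car4 had 124 and 50.7 in PGCs against 5827 in the epiblast, and Car2 357 and 208 against 3118 in EpiSCs. Zic5 had 48.2 and 18.9 against 896 in the epiblast, and Zic2 was at the floor of 4.2 on both PGC arrays. The subunit genes Pde6a, Pde6c, Pde6d, Pde6g and Pde6h had gaps between -2.10 and -0.45.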
